A study of Mus musculus with 10 samples.

Results

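The genes that write and erase ubiquitin on histone H2B were compared between control and Rnf20 knockout samples. They were the 8 genes Rnf20, Rnf40, Ube2a, Ube2b, Wac, Usp22, Usp44 and Atxn7l3, found by their symbols among 17816 genes of a table for day 7 Sertoli cells and among 20007 genes of a table for adult testis. All 8 were present in each table. The day 7 table held 2 samples labelled WT, which came from Rnf20 Flox/Flox mice as the study describes them, and 2 samples of Rnf20 conditional knockout, Amh-Rnf20-/-. These were primary Sertoli cells taken 7 days after birth, cultured and passaged several times, with the adherent cells kept. The adult table held 3 testis samples with the genotype WT and 3 with the genotype RNF20 conditional knockout, and no age in days was given for them. The study describes its knockout mice as carrying Cre under the Amh promoter, which is active in Sertoli cells. For the adult samples the labels name no driver, and that they come from the same cross is taken from that description. No sample was treated.

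In the nucleus, RNF20 and RNF40 form a RING-type E3 ligase that places a single ubiquitin on histone H2B (H2BK120ub in mammals). The ubiquitin arrives on an E2 conjugating enzyme, UBE2A or UBE2B, the mammalian forms of yeast Rad6, and the adaptor WAC links the ligase to RNA polymerase II on transcribed genes. The mark is removed by deubiquitinases, among them USP22, which works inside the SAGA coactivator and needs ATXN7L3 for its activity, and USP44. H2BK120ub is laid down along genes during transcription elongation and helps the methylation of histone H3 by DOT1L and SETD1 complexes. In testis UBE2B is known for its role in spermatids, since male mice without it are infertile.

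The sequences of the E2 pair are shown because the reads of these paralogs are told apart only by bases that differ. The coding sequences have 456 bases each without the stop codon, 354 of which (77.6%) are identical, and the longest identical run is 17 bases. No stretch of 25 bases occurs in both transcripts. The first 150 coding bases, of which 37 differ, are given 5′ to 3′ with the differing bases in capitals, from GENCODE transcripts on GRCm38. The Ube2a stretch lies within chrX:36874486-36875191 on the plus strand and the Ube2b stretch within chr11:51995375-52000336 on the minus strand, both spread over coding exons.
Ube2a: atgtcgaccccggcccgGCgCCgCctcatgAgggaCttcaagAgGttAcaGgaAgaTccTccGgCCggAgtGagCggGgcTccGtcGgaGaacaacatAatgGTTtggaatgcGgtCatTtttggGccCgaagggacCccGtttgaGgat
Ube2b: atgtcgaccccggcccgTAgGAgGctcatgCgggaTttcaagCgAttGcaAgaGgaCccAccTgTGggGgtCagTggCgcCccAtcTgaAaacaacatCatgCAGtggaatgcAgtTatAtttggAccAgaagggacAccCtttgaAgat

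Promoters are shown for Rnf40 and Ube2b, the ligase and E2 genes that were lower in the adult knockout-labelled samples, and for Ube2a, the paralog that was not. The 250 bases before a transcription start are given 5′ to 3′ from RefSeq on GRCm38.p6, with capitals for matches to TGACG (a cAMP response element core), CCAAT (bound by NF-Y), GGGCGG (a GC box) or TATAAA on either strand. The Rnf40 stretch is chr7:127588448-127588697 on the plus strand, ending at the annotated gene start. The Ube2b stretch is chr11:52000787-52001036 on the minus strand, 3359 bases inside the longest annotated form of the gene. The Ube2a stretch is chrX:36874045-36874294 on the plus strand and also ends at the gene start.
Rnf40: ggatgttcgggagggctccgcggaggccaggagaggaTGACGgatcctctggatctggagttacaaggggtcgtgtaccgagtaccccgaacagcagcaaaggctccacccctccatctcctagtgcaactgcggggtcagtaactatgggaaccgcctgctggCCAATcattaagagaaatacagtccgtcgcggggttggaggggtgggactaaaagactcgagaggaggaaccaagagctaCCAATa
Ube2b: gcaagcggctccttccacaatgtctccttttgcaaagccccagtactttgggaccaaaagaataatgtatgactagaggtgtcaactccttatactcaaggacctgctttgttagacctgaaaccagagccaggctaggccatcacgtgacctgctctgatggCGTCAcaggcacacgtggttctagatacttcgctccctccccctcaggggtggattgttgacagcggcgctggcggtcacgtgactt
Ube2a: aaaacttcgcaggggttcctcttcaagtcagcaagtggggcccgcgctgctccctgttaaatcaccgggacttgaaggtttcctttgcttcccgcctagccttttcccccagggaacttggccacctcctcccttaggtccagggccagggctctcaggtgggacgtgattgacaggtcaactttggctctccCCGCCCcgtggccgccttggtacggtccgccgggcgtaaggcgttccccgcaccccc

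The Rnf40 stretch holds 1 match to TGACG and 2 to CCAAT, the Ube2b stretch 1 match to TGACG, and the Ube2a stretch 1 to GGGCGG and none to the other motifs. Among 32851 promoter entries of the same length, 17.8% hold TGACG, 33.8% CCAAT, 32.7% GGGCGG and 12.4% TATAAA. None of the 3 printed stretches holds TATAAA. The stretches contain 13 CG dinucleotides in Rnf40, 9 in Ube2b and 15 in Ube2a, against a median of 6 over all entries. Before a further start of Ube2b the table gives 0 matches to TGACG, 2 to GGGCGG and 33 CG dinucleotides, and before a further start of Rnf40 it gives 2 to TGACG and 1 to GGGCGG, so that the contrast between the printed stretches does not hold for every start. These matches describe letters and not binding sites.

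The libraries held between 15431912 and 17705347 estimated counts over all genes. Values per gene are FPKM, fragments per kilobase of transcript scaled to the library's fragments, which allow levels of different genes to be set side by side within a table. Differences are log2 fold changes of knockout minus control from edgeR's quasi-likelihood test with TMM scaling, a scaling that takes the bulk of genes as unmoved, with Benjamini-Hochberg adjusted p-values over all genes tested. A gene was called at an adjusted p under 0.05. For day 7 the methods speak of individuals in each group, and for the adult samples the sources used here name no separate animals, so that adult p-values measure the spread between these samples, which may be technical. The 2 day 7 knockout samples differed from each other more than the controls did (chi-square per degree of freedom 34.3 against 2.65), and knockout replicate 1 lay farther from the controls. Among adult samples the knockout-labelled replicate 1 stood apart from the other knockout-labelled samples (88.1 and 118, against 21.4 between the other two), while WT pairs gave 13.7 to 17.6.

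The labelled cell type was checked on 12 Sertoli cell markers. At day 7 all 12 were listed, with a summed level of 1600 to 1777 FPKM in controls and 878 to 1270 FPKM in knockout samples. On FPKM 9 of 12 were lower in both knockout samples and 1 was higher. For the counts in this paragraph, 24.8% of all genes tested were higher and 26.1% lower without overlap on TMM-scaled counts. The same day 7 samples held 7 of 7 peritubular myoid markers and 6 of 6 fibroblast markers, summing to 1969 to 2090 FPKM and 2152 to 2236 FPKM in controls. In the knockout samples these sums were higher, at 3645 to 3694 FPKM and 3306 to 3920 FPKM, and every member of both lists was higher. The Leydig cell sum was also higher (205 to 301 FPKM against 149 to 156 FPKM, 5 of 6 members higher). The endothelial sum was 34.0 to 46.1 FPKM against 30.5 to 32.4 FPKM with 2 of 5 members higher and 1 lower, and the macrophage sum overlapped. The spermatogonium sum was lower (140 to 145 FPKM against 202 to 210 FPKM, 9 of 10 members lower and 1 higher). So was the spermatocyte sum (16.1 to 19.8 FPKM against 24.2 to 29.4 FPKM, 8 of 12 members lower). The part of this shift in the day 7 values given next was not tested. In a bulk sample, fewer cells of a type and less RNA per cell cannot be told apart.

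Rnf20, the deleted gene, was lower in the day 7 knockout samples and the log2 fold changes of the other 6 members tested lay between -0.08 and 0.13. Rnf20 measured 16.64 and 16.01 FPKM in the controls and 10.25 and 12.58 FPKM in the knockout samples. Both knockout samples were below both controls, and about 1.43 times less Rnf20 RNA was found on average. The log2 fold change was -0.49 (SE 0.12, n = 2 per group), with an unadjusted edgeR p of 0.0136 and an adjusted p of 0.222, so the difference was not called. DESeq2 gave an adjusted p of 0.107.

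The Rnf20 gene occupies positions 49632005 to 49656887 of chromosome 4 (GRCm38.p6). The loxP sites are placed by the study between exons 2 and 4, without naming the transcript or saying which of these exons are removed. In the GENCODE transcript examined, which has 21 exons and 4154 bases, exons 2 to 4 together make up 473 bases, or 11.4% of the transcript, which is the most that could be missing if the numbers refer to it. The whole-gene values used here also count fragments from the rest and do not separate intact from deleted transcripts.

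Rnf40, the partner subunit of the ligase, was at 19.52 and 19.85 FPKM in the day 7 controls and at 19.72 and 20.33 FPKM in the knockout samples. Its log2 fold change was 0.07 (SE 0.07, adjusted p = 0.719 by edgeR). The ratio of Rnf20 to Rnf40 within a sample does not depend on library scaling. Rnf20 made up 46.0% and 44.6% of the summed FPKM of both subunits in the controls and 34.2% and 38.2% in the knockout samples. The log2 ratio differed by -0.54 without overlap between groups, and the exact two-sided permutation test gave p = 0.333, the smallest that 2 against 2 samples allow (0.333 after adjustment over 6 ratio tests).

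The E2 enzymes differed little at day 7. Ube2a was at 25.58 and 26.62 FPKM in controls and at 26.28 and 25.5 FPKM in knockout samples, and the groups overlapped. Ube2b was at 56.74 and 56.43 FPKM in controls and at 52.39 and 51.73 FPKM in knockout samples, below the controls in both (log2 fold change -0.08, SE 0.08, edgeR adjusted p = 0.680). Ube2a supplied 31.1% and 32.1% of the summed E2 FPKM in controls and 33.4% and 33.0% in knockout samples. The log2 ratio of Ube2a to Ube2b differed by 0.11 (exact permutation p = 0.333).

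Wac, the adaptor, was at 28.49 and 26.72 FPKM in the day 7 controls and at 27.44 and 26.84 FPKM in the knockout samples. Both knockout values lie between the controls, and the log2 fold change was 0.01 (SE 0.08).

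Among the erasers, Usp22, the catalytic subunit of the SAGA module, was at 25.75 and 23.32 FPKM in day 7 controls and at 27.52 and 24.72 FPKM in knockout samples. These ranges overlapped (log2 fold change 0.13, SE 0.10). Atxn7l3, its activating subunit, was at 27.04 and 25.31 FPKM in controls and at 24.24 and 23.93 FPKM in knockout samples, lower in both (log2 fold change -0.07, SE 0.08, edgeR adjusted p = 0.714). The log2 ratio of Usp22 to Atxn7l3 was higher by 0.21 in the knockout samples without overlap (exact permutation p = 0.333). Usp44 was at 0.27 and 0.23 FPKM in controls and at 0.11 and 0.24 FPKM in knockout samples, which stands for 7 to 16 estimated counts a library. It stayed under the filter of 0.5 FPKM and was not tested.

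In the day 7 controls Ube2b had the highest level of the 8 genes (56.6 ± 0.219 FPKM, mean ± SD, n = 2). Wac, Atxn7l3, Ube2a and Usp22 followed between 24.5 and 27.6 FPKM, and each overlapped its neighbour in that order. Rnf40 came next (19.7 ± 0.233 FPKM) and lay above Rnf20 (16.3 ± 0.445 FPKM), with no overlap between them. Usp44 was last at 0.250 FPKM. In the knockout samples the distance between Rnf40 (20.025 ± 0.431 FPKM) and Rnf20 (11.4 ± 1.65 FPKM) was wider.

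Of the 7 members tested at day 7, edgeR, DESeq2 and limma each called 0, and 1 (Rnf20) had an unadjusted edgeR p under 0.05. Over all 12880 genes edgeR called 0%, and DESeq2 called 3% higher and 1.49% lower. An unadjusted edgeR p under 0.05 was found for 15.5%. The study, which does not name its test, reports genes of both directions as differing in its day 7 cells. On TMM-scaled counts 1 member was higher in both knockout samples (Rnf40) and 3 were lower (Rnf20, Ube2b, Atxn7l3), where 24.8% and 26.1% of all genes did so. With knockout replicate 1 left out, Rnf20 was called lower (log2 fold change -0.35, adjusted p = 0.0112), while 9.74% of all genes were called higher and 11.7% lower. With knockout replicate 2 left out, Rnf20 was called lower (-0.64, adjusted p = 0.000452) and Usp22 higher (0.21, adjusted p = 0.0470), while 21% of all genes were called higher and 18.8% lower. These fits leave the remaining knockout sample to be judged by the spread between the controls.

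**Figure D1:**
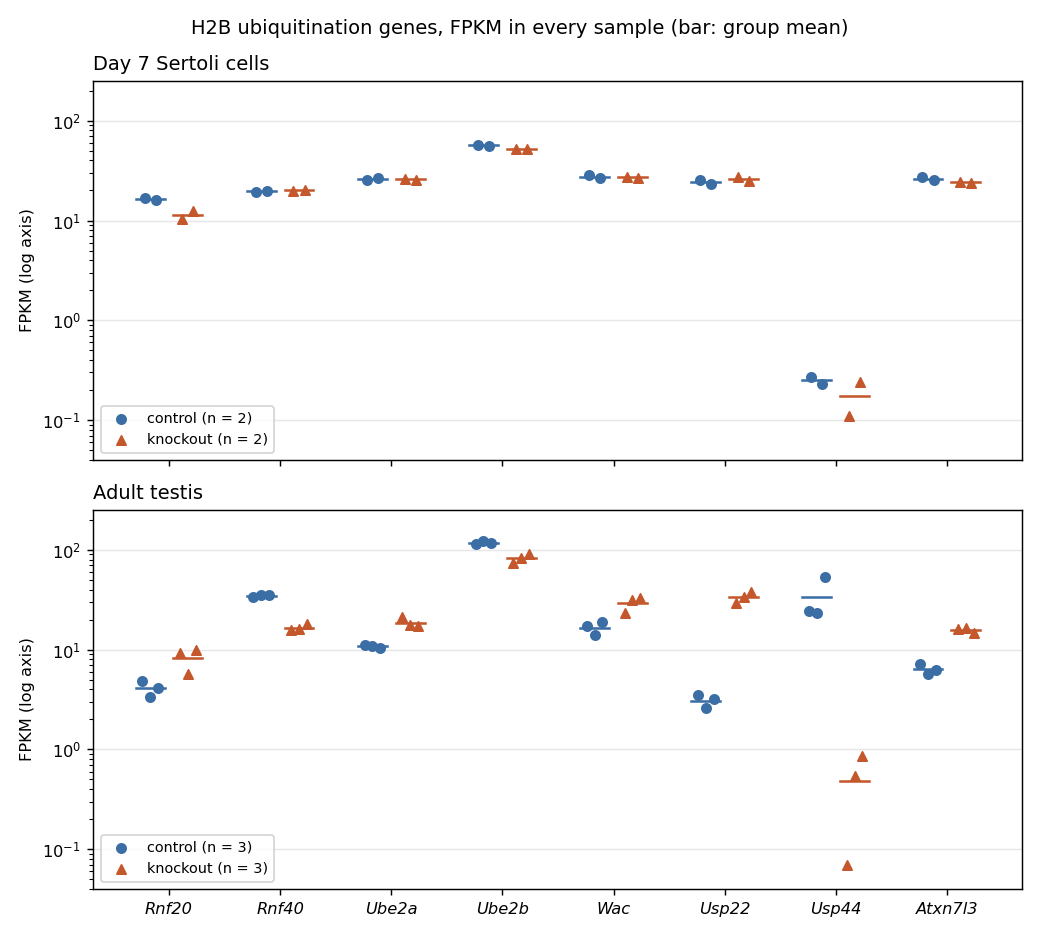
FPKM on a log axis of the 8 genes in every sample, with circles for controls, triangles for knockout samples and bars for group means, in day 7 Sertoli cells (n = 2 per group) and adult testis (n = 3 per group). At day 7 Rnf20 stands below its controls (10.25 and 12.58 against 16.64 and 16.01 FPKM), and in adult testis Usp22 is higher and Usp44 lower in the knockout-labelled samples.

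The adult samples differed far more, and the makeup of the tissue differed with them. On FPKM all 12 spermatid markers and all 12 spermatocyte markers were lower in the knockout-labelled samples. With TMM 12 spermatid and 9 spermatocyte markers were called lower, against 40.6% of all genes. With total counts 12 and 6 were, against 30%. The spermatid list summed to 126113 to 194736 FPKM in WT testis and to 4.51 to 102 FPKM in the knockout-labelled samples, and the spermatocyte list to 7015 to 7175 FPKM and 15.0 to 614 FPKM. The summed levels of Leydig cell, fibroblast, macrophage and endothelial markers were 14.9, 42.3, 31.3 and 11.3 times higher. The fibroblast sum was 27.7 times higher with knockout-labelled replicate 1 left out. The Sertoli cell sum was higher, at 2782 to 6509 FPKM against 698 to 875 FPKM. Of its 12 members 5 were higher and 1 (Rhox5) lower without overlap, against 54.9% and 32.4% of all genes on FPKM. The other members overlapped. The largest part of the sum was Clu, at 564, 470 and 450 FPKM in WT and at 1857, 4411 and 4953 FPKM in the knockout-labelled samples. The peritubular myoid list overlapped, with 6 of 7 members higher on FPKM and 1 (Actg2) lower, and so did the spermatogonium list (49.7 to 446 FPKM against 269 to 301 FPKM). The part of this makeup in the member values was not tested.

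The scale of an adult fold change depends on the scaling. TMM factors were 0.711 to 0.761 in WT and 1.27 to 1.42 in knockout-labelled libraries, and over all genes the log2 fold changes had a median of 0.011 with TMM, of -0.187 with median-ratio scaling and of 0.869 with total counts. Total counts and FPKM divide by the whole library, spermatid transcripts included. Values under both scalings are given for each member.

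Rnf20 RNA was not lower in the adult samples labelled as its knockout. It measured 4.89, 3.32 and 4.09 FPKM in WT testis and 9.16, 5.76 and 9.85 FPKM in the knockout-labelled samples. All 3 lay above the WT samples on FPKM, and with TMM scaling the groups overlapped. The log2 fold change was 0.12 with TMM (SE 0.27, edgeR adjusted p = 0.688), -0.08 with median-ratio scaling (adjusted p = 0.804) and 0.97 with total counts (adjusted p = 0.0168). These whole-gene RNA values of whole tissue do not check the genotype. By Western blot the study reports less RNF20 protein in adult Amh-Rnf20-/- testes than in its controls. Protein is a different measure from the RNA values given here.

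Rnf40 was lower in the knockout-labelled testis under each scaling. It measured 33.41, 35.25 and 35.49 FPKM in WT and 15.89, 15.97 and 18.06 FPKM in the knockout-labelled samples, with no overlap. The log2 fold change was -1.92 with TMM (SE 0.12, edgeR adjusted p = 4.56e-05) and -1.06 with total counts (SE 0.12, adjusted p = 0.000291). The subunits of the ligase therefore differed in opposite directions on FPKM. Rnf20 made up 12.8%, 8.61% and 10.3% of their summed FPKM in WT and 36.6%, 26.5% and 35.3% in the knockout-labelled samples. The ratio of Rnf20 to Rnf40 was 4.09 times higher (log2 difference 2.03), with p = 0.1 in the exact two-sided permutation test, the smallest that 3 against 3 samples allow, and 0.2 after adjustment.

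The E2 enzymes also differed in opposite directions on FPKM. Ube2b (chromosome 11, 51985138 to 52004145) was at 114.99, 123.11 and 116.63 FPKM in WT and at 74.56, 83.11 and 90.67 FPKM in the knockout-labelled testis. All knockout-labelled values were below all WT values, with log2 fold changes of -1.56 with TMM (SE 0.14, edgeR adjusted p = 0.000145) and -0.70 with total counts (SE 0.14, adjusted p = 0.00392). Limma on log2(TPM + 0.1) gave -0.27 (adjusted p = 0.121) and did not call it. Ube2a (chromosome X, 36874295 to 36884222) was at 11.08, 10.93 and 10.44 FPKM in WT and at 21.33, 17.5 and 17.22 FPKM in the knockout-labelled testis. It was higher without overlap on FPKM, with a log2 fold change of 0.79 with total counts (adjusted p = 0.00224), and stood at -0.06 with TMM (SE 0.16, adjusted p = 0.729). Ube2b remained the more abundant E2 in every sample, and the share of Ube2a was 8.79%, 8.15% and 8.22% in WT and 22.2%, 17.4% and 16.0% in the knockout-labelled samples. The ratio of Ube2a to Ube2b was 2.45 times higher (exact permutation p = 0.1, adjusted 0.2).

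Wac was at 17.25, 13.88 and 18.79 FPKM in WT testis and at 23.32, 31.11 and 32.56 FPKM in the knockout-labelled samples. As for Ube2a, the groups did not overlap on FPKM but did so with TMM. Its log2 fold change was -0.06 with TMM (SE 0.16, edgeR adjusted p = 0.738) and 0.80 with total counts (adjusted p = 0.00856).

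Among the erasers in adult testis, Usp22 was higher and Usp44 lower without overlap between groups. Usp22 (chromosome 11, 61151781 to 61175059) was at 3.48, 2.58 and 3.17 FPKM in WT and at 29.45, 33.72 and 37.76 FPKM in the knockout-labelled samples. The mean was 10.9 times higher, and the log2 fold change was 2.59 with TMM (SE 0.14, edgeR adjusted p = 3.4e-05) and 3.45 with total counts. Usp44 (chromosome 10, 93819969 to 93859425) was at 24.39, 23.18 and 53.9 FPKM in WT and at 0.07, 0.54 and 0.85 FPKM in the knockout-labelled samples. WT replicate 3 had more than the other WT samples, and the knockout-labelled values rest on 4, 32 and 48 estimated counts, with replicate 1 the lowest. The gene passed the filter only with the WT samples, where it is high, so its direction among the genes tested is given as a description. The WT mean was 69.5 times higher, 111 times with knockout-labelled replicate 3 left out and 48.7 times without replicate 1. The log2 fold change was -7.02 with TMM (SE 0.87, edgeR adjusted p = 0.000466) and -6.14 with total counts, and with TMM it was -6.38 without replicate 1 and -6.98 (adjusted p = 0.000416) with no filter on low values.

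Usp44 supplied 87.5%, 90.0% and 94.4% of the summed FPKM of Usp44 and Usp22 in WT testis and 0.237%, 1.58% and 2.20% in the knockout-labelled samples. The day 7 samples had shares of 0.398% to 1.04%, and this range overlapped that of the knockout-labelled testis. The tables were normalized separately, and a share is taken within a sample.

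Atxn7l3 (chromosome 11, 102289300 to 102297045) was at 7.16, 5.66 and 6.32 FPKM in WT testis and at 16.21, 16.38 and 14.64 FPKM in the knockout-labelled samples. It was higher in all 3, with a log2 fold change of 0.47 with TMM (SE 0.13, edgeR adjusted p = 0.0169) and 1.32 with total counts (adjusted p = 0.000200). With median-ratio scaling the value was 0.28 (adjusted p = 0.122) and the call was lost. Its fold change was smaller than that of Usp22, and the ratio of Usp22 to Atxn7l3 was 4.34 times higher (log2 difference 2.12, exact permutation p = 0.1, adjusted 0.2). Within WT testis Usp22 was below Atxn7l3 in every sample, and within the knockout-labelled testis it was above it in every sample.

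With TMM scaling 2 members were called higher (Usp22, Atxn7l3), 3 lower (Rnf40, Ube2b, Usp44) and 3 were not called (Rnf20, Ube2a, Wac). Usp44 passed the filter only with the WT samples, so counting it among the lower members in this paragraph is a description. Of all 15919 genes tested, 40.9% were called higher and 40.6% lower, so that calls were common throughout the table. The study used a log2 fold change beyond 1 and an FDR under 0.001 for its day 7 Sertoli cells. Under these thresholds in the adult fit 1 member was higher (Usp22) and 3 lower, against 23% and 23.7% of all genes. With total counts all 8 members were called, 5 higher and 3 lower, against 54.1% and 30% of all genes. The same 5 and 3 members did not overlap on FPKM, against 54.9% and 32.4% of all genes. On TMM-scaled counts 2 were higher and 3 lower without overlap, against 42.4% and 43.1%. The median log2 fold change of the members was -0.06 with TMM and 0.79 with total counts. With knockout-labelled replicate 1 left out, 2 members were again called higher and 3 lower, against 45.3% and 41.1% of all genes.

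**Figure D2:**
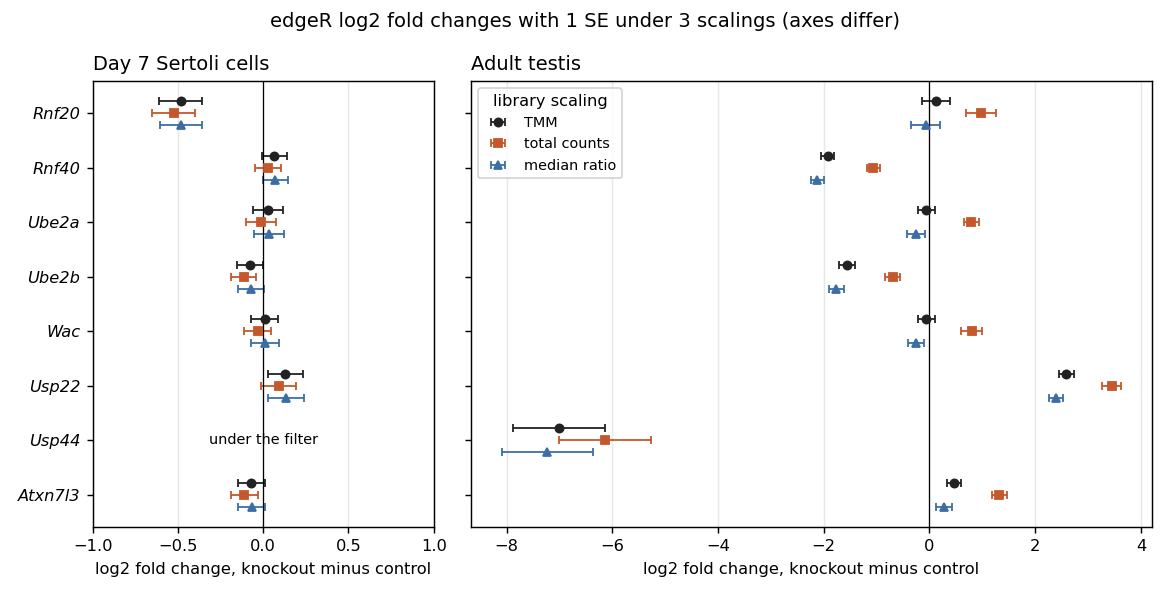
Log2 fold changes of knockout minus control from edgeR with bars of 1 SE, under TMM, total-count and median-ratio scaling, for the 8 genes in each table; the horizontal axes differ. Usp22, Atxn7l3, Usp44, Rnf40 and Ube2b keep their side of 0 under the 3 scalings in adult testis, and Rnf20, Ube2a and Wac do not. Atxn7l3 is not called with median-ratio scaling, and Usp44 was under the filter at day 7.

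In WT testis Ube2b again had the highest level (118 ± 4.29 FPKM, mean ± SD, n = 3), followed by Rnf40 (34.7 ± 1.14 FPKM) and Usp44 (33.8 ± 17.4 FPKM), which overlapped each other. Wac (16.6 ± 2.51 FPKM), Ube2a (10.8 ± 0.335 FPKM) and Atxn7l3 (6.38 ± 0.752 FPKM) came next without overlap. Rnf20 (4.10 ± 0.785 FPKM) and Usp22 (3.08 ± 0.457 FPKM) were the lowest and overlapped. In the knockout-labelled testis the order was Ube2b, Usp22, Wac, Ube2a, Rnf40, Atxn7l3, Rnf20 and Usp44. There Usp22 overlapped Wac, and Ube2a overlapped Rnf40, which overlapped Atxn7l3. Usp22 was thus last in WT and next to Ube2b in the knockout-labelled testis, and in the day 7 cells it belonged to the middle group.

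**Figure D3:**
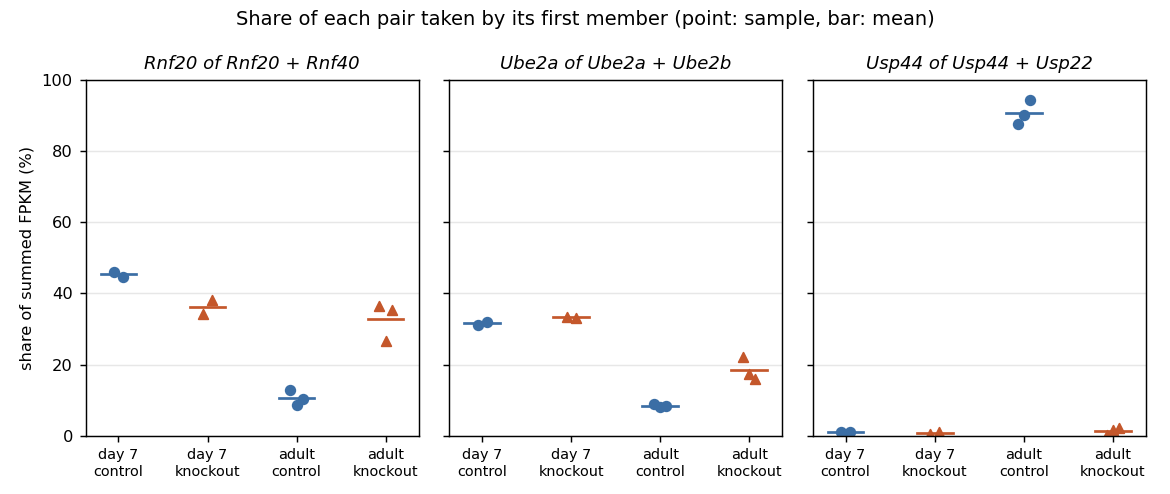
Share of the summed FPKM of a pair, in percent, taken by Rnf20 (with Rnf40), Ube2a (with Ube2b) and Usp44 (with Usp22) in every sample, with circles for controls, triangles for knockout samples and bars for means. The Rnf20 share is lower in the day 7 knockout samples and higher in the adult knockout-labelled samples than in their controls, and Usp44 takes 87.5% to 94.4% in the WT testis.

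The other genes of the pathway were followed in a list of 31 genes. Of these, 6 were subunits of the PAF1 complex, which recruits the ligase to elongating polymerase, and 5 were genes of ubiquitin supply. Another 6 were partners or alternative enzymes of the SAGA deubiquitinase module, and 4 were other deubiquitinases reported for H2B. The rest were 5 genes of methyltransferases linked to H2BK120ub or of their complexes, and 5 genes of H2A ubiquitination for comparison. At day 7, 30 were tested and edgeR and DESeq2 each called 0. The median log2 fold change was -0.005, against -0.004 over all genes. Of the 30, 2 had an unadjusted edgeR p under 0.05, against 15.5% of all genes, so such values were not more common in the list. Those 2 were Dot1l and Ctr9. Dot1l, the H3K79 methyltransferase, was at 29.96 and 31.13 FPKM in controls and at 25.07 and 25.5 FPKM in knockout samples (log2 fold change -0.24, SE 0.07, adjusted p = 0.270). Ctr9, a scaffold subunit of the PAF1 complex, was at 19.07 and 18.72 FPKM in controls and at 21.33 and 20.94 FPKM in knockout samples (0.20, SE 0.08, adjusted p = 0.319). The other fold changes named by the rule lay between -0.19 (Usp42) and 0.32 (Ring1), with Atxn7l1 at 0.22, Usp7 at 0.11, Usp16 at 0.12, Wdr82 at -0.09, Atxn7l2 at -0.13 and Cdc73 at -0.15. Usp51 was under the filter.

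In adult testis 22 of the 31 pathway genes were called, 6 higher and 16 lower, where 40.9% and 40.6% of all genes were called. Calls of both directions together were not more common in the list than in the table. Lower calls alone made up a larger share of the list, a difference that was not tested. They include Usp51, which passed the filter through the WT samples alone. The median log2 fold change was -0.47 against 0.01 over all genes. With total counts 14 were called higher and 10 lower, against 54.1% and 30% of all genes, with a median of 0.40 against 0.87. The fold changes of the PAF1 subunits lay between -0.60 (Leo1, adjusted p = 0.00301) and 0.36 (Wdr61, adjusted p = 0.0417) with TMM, and the call of Wdr61 was lost with median-ratio scaling (0.16, adjusted p = 0.266). With TMM 1 subunit was called higher and 2 lower (Leo1 at -0.60 and Ctr9 at -0.47), and with total counts 3 were called higher and 0 lower. Leo1 and Ctr9 then had values of 0.26 and 0.40 and were not called. Rtf1 (-0.09 with TMM) and Cdc73 (-0.32) were called higher at 0.77 and 0.54, and Paf1 turned from -0.33 to 0.54. With median-ratio scaling Cdc73 (-0.52, edgeR adjusted p = 0.0148) and Paf1 (-0.53, adjusted p = 0.0246) were instead called lower. With the replicate number as a block, Ctr9 was not called (edgeR adjusted p = 0.0518).

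Of the 4 other H2B deubiquitinases of the list, 1 was called higher and 3 lower in adult testis, where 40.9% and 40.6% of all genes were. Usp49, reported as an H2B deubiquitinase, was at 12.64, 7.34 and 9.51 FPKM in WT and at 1.77, 1.73 and 1.85 FPKM in the knockout-labelled testis (log2 fold change -3.31, SE 0.21, edgeR adjusted p = 4.56e-05). Usp42 was at 20.68, 19.76 and 21.58 FPKM in WT and at 4.53, 6.22 and 8.42 FPKM in the knockout-labelled testis (-2.63, SE 0.21). Together with Usp7 they were lower under both scalings, and Usp3 was higher under both (0.93 with TMM, 1.79 with total counts).

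The SAGA module has enzymes that can take the place of USP22 on ATXN7L3, USP51 and USP27X. Usp51 was at 1.26, 1.46 and 1.4 FPKM in WT and at 0.12, 0.12 and 0.11 FPKM in the knockout-labelled testis (log2 fold change -4.41, SE 0.29, edgeR adjusted p = 5.3e-05). The knockout-labelled values of Usp51 rest on 5, 5 and 4 estimated counts, and it passed the filter through the WT samples alone, so that a gene like it could be tested only if it was lower. With no filter on low values its log2 fold change was -4.37 (edgeR adjusted p = 7.05e-05). Usp27x was at 0.87, 0.96 and 0.97 FPKM in WT and at 4.01, 7.68 and 8.18 FPKM in the knockout-labelled testis (1.95, SE 0.29, adjusted p = 0.00103). Eny2, a small subunit of the module, was higher with TMM (0.71) but not called with median-ratio scaling (0.52, adjusted p = 0.0718), and Atxn7l1 was lower (-1.65).

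Among genes of ubiquitin supply, Uba1, the main ubiquitin-activating enzyme, was at 35.43, 30.89 and 36.57 FPKM in WT and at 175.5, 137.23 and 134.06 FPKM in the knockout-labelled testis (log2 fold change 1.25, SE 0.20, edgeR adjusted p = 0.00151). Ubb, a polyubiquitin gene, was at 6666, 6930 and 6306 FPKM in WT and at 2074, 3079 and 3457 FPKM in the knockout-labelled testis (-1.97, SE 0.33, adjusted p = 0.00170). Both kept these directions with total counts (2.09 and -1.10). Of the genes of methyltransferases or their complexes, Dot1l was lower. It was at 22.99, 22.28 and 26.82 FPKM in WT and at 7.40, 9.33 and 11.27 FPKM in the knockout-labelled testis (-2.25, SE 0.17, edgeR adjusted p = 7.34e-05). Wdr82, a subunit of the SETD1 complexes, was at 6.26, 5.36 and 5.62 FPKM in WT and at 29.51, 39.56 and 45.86 FPKM in the knockout-labelled testis (1.89, SE 0.16, adjusted p = 0.000108).

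For comparison, 3 of the 5 genes of H2A ubiquitination were called lower with TMM, where 40.6% of all genes were, and 2 were not called. These were Ring1 (0.39) and Rnf2 (0.02), which were called higher with total counts (1.25 and 0.88), as were 54.1% of all genes. Bmi1 and Usp16, the largest falls of this group, had log2 fold changes of -2.64 (SE 0.15) and -2.48 (SE 0.13). Bmi1, a Polycomb subunit, fell from a mean of 60.4 FPKM to 17.6 FPKM, and Usp16, a deubiquitinase of H2A, from 63.7 FPKM to 20.9 FPKM.

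**Figure D4:**
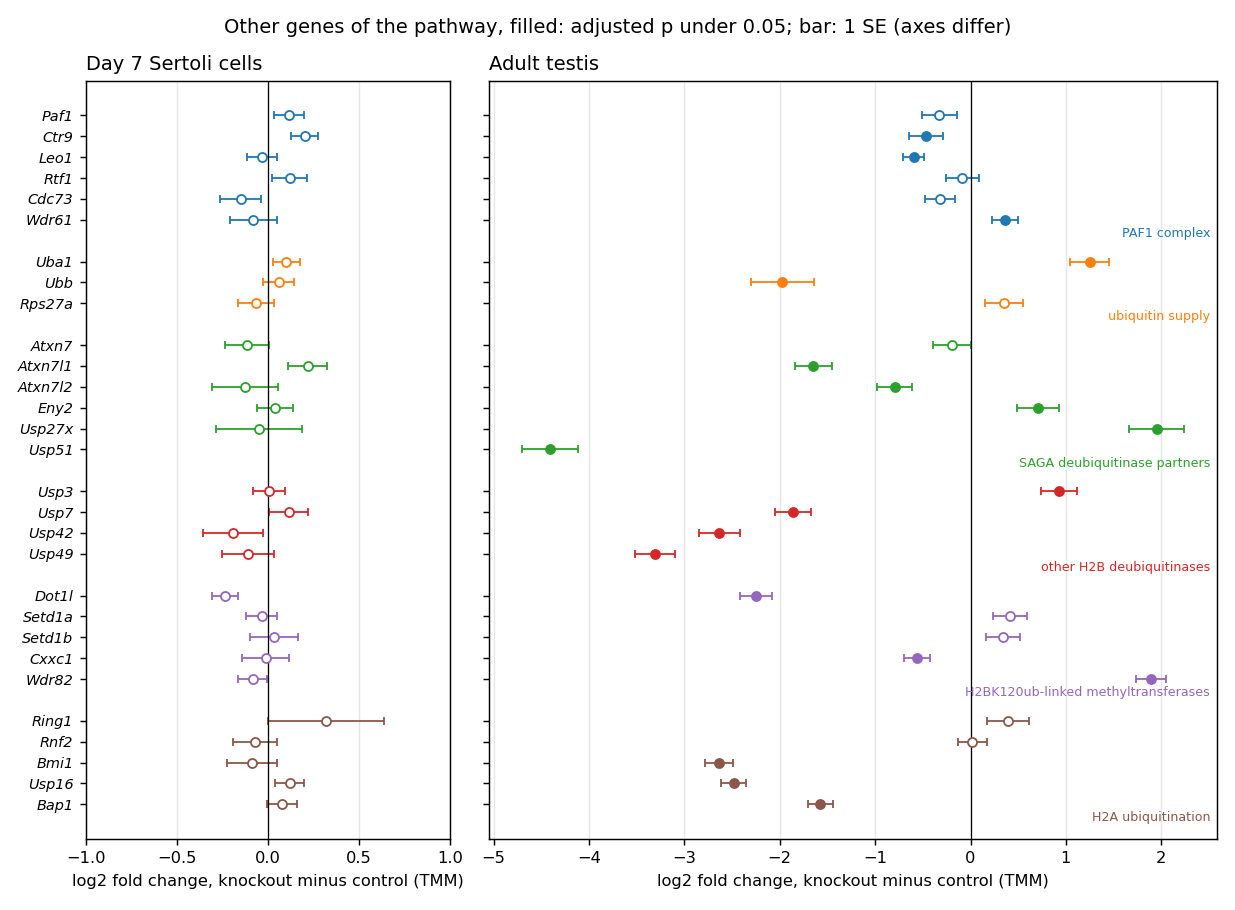
Log2 fold changes (knockout minus control, edgeR with TMM, bars of 1 SE) of 29 other pathway genes, grouped by role, with filled points at an adjusted p under 0.05; the horizontal axes differ. No point is filled at day 7, where Usp51 was not tested, and 20 are filled in adult testis, from Usp51 at -4.41 to Usp27x at 1.95; with total counts Paf1, Ctr9, Leo1, Rtf1, Cdc73, Atxn7, Atxn7l2 and Cxxc1 change sign.

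Genes with patterns most like the members were sought over the 10 samples among 12378 genes tested in both tables, by the root mean square difference of log2(FPKM + 0.1) after centring each gene within each table. Rnf20 was closest to Sertad4 (0.146), Cadm4 (0.155) and Pole4 (0.158). The closest gene was Btf3 for Rnf40 (0.0540), Mrpl42 for Ube2a (0.0547), Ppp4c for Ube2b (0.0344), Gtf3c3 for Wac (0.0613), Litaf for Usp22 (0.0878) and Fbxo9 for Atxn7l3 (0.0617). Rnf20 was therefore farther from its nearest gene than the other members were. Sertad4 was at 10.07 and 10.15 FPKM in day 7 controls and at 5.94 and 7.40 FPKM in day 7 knockout samples, lower like Rnf20. In adult testis it was at 0.72, 0.65 and 0.69 FPKM in WT and at 1.42, 1.18 and 2.06 FPKM in the knockout-labelled samples. Usp44 was not tested at day 7 and had no such comparison.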

How the data were processed

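RNA-seq was compared in 4 samples of day 7 Sertoli cells and 6 of adult testis, grouped by their titles and genotypes. The authors enriched mRNA with oligo(dT), sequenced on a BGISEQ platform, mapped reads by HISAT to GRCm38.p6 and by Bowtie2 to reference genes, and calculated FPKM by RSEM, as stated for day 7; tool versions and strand handling are not given in the sources used here. Per the file headers, the deposited values are estimated counts without normalization, FPKM and TPM. Of the estimated counts, 10.7% to 13.2% per library were not whole, and they were rounded before the test. The adult table has 20 columns without values, which were not used. For day 7 the methods name 3 individuals in a group, and the table used here has 2.

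Each table was fitted alone with edgeR 4.0.16 (R 4.3.3) on genes with at least 0.5 FPKM in at least 2 (day 7) or 3 (adult) samples, 12880 at day 7 and 15919 in adult testis. Standard errors were derived from the fold change and the F statistic. Ratios used log2(FPKM + 0.1) and exact two-sided permutation tests, adjusted over 6 ratios (Benjamini-Hochberg). Overlap of groups was judged on TMM-scaled counts unless FPKM is named and for marker members on FPKM. The members, lists and tests were chosen with earlier results of these data known. Named were the 8 members, up to 2 genes per pathway group and table with the largest absolute fold changes, and the nearest genes by likeness. Usp3, Usp7, Eny2, Atxn7, Atxn7l1, Atxn7l2, Wdr61, Paf1, Rtf1, Cdc73, Cxxc1, Ring1 and Rnf2 in adult testis were named after their values were seen. So were the markers Clu, Rhox5 and Actg2. Of the pathway list, 2 genes that count in its totals are not reported here. Alternatives were median-ratio and total-count scaling, DESeq2 1.42.0, limma 3.58.1 on log2(FPKM + 0.1), log2(FPKM + 1) and log2(TPM + 0.1), other filters, a replicate block and leaving out each sample; leaving samples out of the marker sums was added after seeing the data.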

Additional observations from a re-analysis of the deposited data

Results flagged for a closer look

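For 5 measures the knockout samples lay on opposite sides of the controls of their own table in the day 7 cells and in the adult testis, without overlap. On TMM-scaled counts 2 of the 7 members tested in both tables did so, against 18.3% of 12378 genes, and on FPKM 2 of 7 against 21.8%. No member was called at day 7. The differences between the tables were not tested, and the tissues, the culture and the scaling differ as well. Rnf20 on FPKM had a log2 difference of -0.51 at day 7 and 0.99 in adult testis, 1.505 apart, while its adult groups overlapped on TMM-scaled counts. Rnf40 on TMM-scaled counts was at 0.07 at day 7 and -1.92 in adult testis, an adult minus day 7 difference of -1.99, while its day 7 groups overlapped on FPKM. Atxn7l3 was at -0.07 and 0.47 on TMM-scaled counts, 0.54 apart, and at -0.12 and 1.29 on FPKM, 1.41 apart. The log2 ratio of Rnf20 to Rnf40 was -0.54 at day 7 and 2.03 in adult testis, 2.58 apart, and does not depend on library scaling.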

How the results depend on the processing

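Control and knockout samples share only a replicate number: same-numbered samples correlated at 0.032 at day 7 and 0.006 to 0.027 in adult testis. With the number as a replicate block, 0 members at day 7 and 5 in adult testis were called, as without it, and 20 against 22 adult pathway genes (38.1% of all adult genes higher and 38.6% lower with the block). Adult members called were 8 with total-count scaling, 8 with limma on log2(FPKM + 0.1) and 8 with limma on log2(FPKM + 1), against 5; over all genes these settings called 54.1%, 53.5% and 53.6% higher and 30%, 30.7% and 31.2% lower. Over all genes at day 7, DESeq2 called 387 higher and 192 lower where edgeR called 0. When either Day7_KO replicate is left out, a single knockout sample remains. In both of those fits edgeR called a larger share of all genes than of the members or of the pathway list. The shares of all genes are given with the day 7 member calls. Leaving out single samples gave 0 to 2 member calls and 0 to 9 pathway calls at day 7 (without Day7_KO replicate 1, 1 and 6; without Day7_KO replicate 2, 2 and 9), and 4 to 5 and 19 to 23 in adult testis, where 37.5% to 45.3% of all genes were called higher and 37.6% to 41.1% lower; the cause was not tested.

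Among the named genes, signs turned as follows. At day 7, Ube2a (0.03) was at -0.0116 with total counts, -0.0115 with limma on log2(FPKM + 0.1), -0.0111 on log2(FPKM + 1) and -0.002 without Day7_KO replicate 1. Wac (0.01) was at -0.0315, -0.0238, -0.023 and, on log2(TPM + 0.1), -0.0096, at -0.022 without Day7_KO replicate 1, and from -0.0363 (without Day7_WT replicate 2) to 0.0538 when single samples were left out. Usp7 ran from -0.005 without Day7_KO replicate 1 to 0.2223 without replicate 2, and Ring1 from -0.1383 without Day7_KO replicate 2 to 0.6611 without replicate 1. The adjusted p of Rnf20 at day 7 ran from 0.000452 to 0.9999 over its alternatives. In adult testis Rnf20 was at -0.0753 with median-ratio scaling and -0.0753 with DESeq2. Rnf2 (0.02 with TMM) was at -0.186 with median-ratio scaling and -0.186 with DESeq2. With total counts and limma on log2(FPKM + 0.1), log2(FPKM + 1) and log2(TPM + 0.1), Ube2a was at 0.79, 0.78, 0.73 and 1.03, Wac at 0.80, 0.79, 0.76 and 1.04, Leo1 at 0.26, 0.26, 0.25 and 0.51, and Ctr9 at 0.40, 0.37, 0.35 and 0.62. With single samples left out, Ube2a ran from -0.1014 to 0.1007 (without Adult_KO replicate 3), and Wac from -0.148 to 0.1807 (without Adult_KO replicate 1), with 0.0254 without Adult_WT replicate 3. Ube2b lost its call on log2(TPM + 0.1) (-0.27, adjusted p = 0.121; from 5.1e-43 to 0.121 over its alternatives), and Atxn7l3 without Adult_WT replicate 2 or 3 or Adult_KO replicate 2 (adjusted p of 0.0646, 0.0603 and 0.057; from 0.00019 to 0.171 over its alternatives). Of the other adult pathway genes, Paf1, Rtf1, Cdc73, Atxn7, Atxn7l2 and Cxxc1 also turned from negative to positive with total counts (0.54, 0.77, 0.54, 0.66, 0.06 and 0.29). Wdr61 and Eny2 lost their calls with median-ratio scaling and DESeq2. Wdr61 and Ctr9 lost theirs with the replicate block (edgeR adjusted p of 0.105 and 0.0518). The 6 ratios kept their direction in every alternative run. In adult testis Rnf40 and Usp22 stayed called in the same direction in every alternative run.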
